A study of Mus musculus with 6 samples.

Results

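The 10 genes described here encode the core of MHC class I antigen presentation: H2-K1, H2-D1, B2m, Tap1, Tap2, Tapbp, Psmb8, Psmb9, Psmb10 and Nlrc5. They were taken by gene symbol from the 24421 genes of one RNA-seq count table, and all 10 had reads in each of the 6 libraries. In the skin libraries, blood endothelial cells (BECs) of E15.5 embryos were Tie2-Cre(-); Dot1l 2f/2f (Cont, labelled wild type) or Tie2-Cre(+); Dot1l 2f/2f (cKO), so both genotypes carried the floxed alleles of the H3K79 methyltransferase gene Dot1l. They were sorted as CD31+, F4/80-, CD45- and Lyve1- cells, and RNA of several embryos was pooled for each library. Tie2-Cre is driven by an endothelial promoter that is also known to be active in blood cells. In the cultured libraries, yolk sac BECs (CRL-2581) and embryonic dermal lymphatic endothelial cells (LECs, C57-6064L), a single line of each type, received empty lentivirus (Cont) or lentivirus bringing dCas9-VP64 to the Dot1l promoter (OE), and EGFP+ cells were sorted. Each condition has 1 library, so no difference below has a replicate check, and each compares 2 libraries, not the conditions beyond them.

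MHC class I molecules show peptides from inside a cell to CD8+ T cells, and nearly all nucleated cells carry them. Peptides are cut by the proteasome, whose 3 catalytic subunits can be exchanged for the interferon-inducible Psmb8, Psmb9 and Psmb10 (the immunoproteasome). Tap1 and Tap2 together pump the peptides into the endoplasmic reticulum, tapasin (Tapbp) holds the empty class I molecule at this pump, and the heavy chains H2-K1 and H2-D1 reach the surface with peptide and the light chain beta-2-microglobulin (B2m). Nlrc5 is a transactivator of class I genes, and endothelial cells are known to raise the pathway in response to interferons.

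Total counts lay between 8863349 and 31032461 reads. Levels are given as CPM, the count per 1000000 reads of a library, and ratios as normalized counts, scaled by the median of ratios method on the pair of libraries compared. Intervals are exact 95% intervals on the reads, except those of the OE-LEC minus OE-BEC difference, which use a normal approximation. They hold counting error alone, and without molecular identifiers PCR copies of one molecule count as separate reads. All 10 members passed the count minimum in each of the 3 comparisons, and 7 (skin), 8 (cultured BECs) and 10 (LECs) had at least 100 normalized counts. Dot1l itself was at 86.0 CPM in skin Cont BECs and 85.2 CPM in cKO BECs, a log2 ratio of -0.07 (interval -0.21 to 0.07), so its count over the whole gene, which does not resolve the floxed part, did not separate the libraries, and the latter is called the library labelled cKO. The study also checked the knockout by RT-qPCR, which is not analysed here. In the cultured cells Dot1l was 2.78-fold higher in OE-BECs (111.5 and 302 CPM) and 2.30-fold higher in OE-LECs (95.3 and 217 CPM).

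Cell type markers set limits on the labels. Although the sort should remove leukocytes and Lyve1+ cells, all 14 leukocyte and macrophage markers had reads in both skin libraries, and their summed level was 3960 CPM in Cont and 6371 CPM in the library labelled cKO. Prox1, the transcription factor that defines lymphatic endothelium, had 1304 and 883 reads there, and Lyve1 had 9105 and 19959. Of the 7 lymphatic markers in the cultured libraries labelled LEC (Cont first), Lyve1 had 52184 and 60898 reads, Flt4 2785 and 4038 and Itga9 750 and 783, while Reln had 1 and 1 and Prox1 and Pdpn had 0 in both. Ccl21a had 0 reads in all 6 libraries. Lyve1 also had 10680 and 14786 reads in the cultured BECs. The name LEC is kept below as a label only, with Prox1 at 0 reads. All 12 blood endothelial markers passed the count minimum in each of the 3 comparisons. In bulk RNA of this kind, fewer cells of a type and less RNA per cell cannot be told apart.

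On the mm10 genome, 7 of the 10 genes lie in the major histocompatibility complex of chromosome 17. From one end, these are Tapbp (33915899 to 33929292), H2-K1 (33996017 to 34000347), Psmb9 (34181987 to 34187764), Tap1 (34187553 to 34197225), Psmb8 (34197721 to 34201454), Tap2 (34203527 to 34216321) and H2-D1 (35262730 to 35267499). B2m is on chromosome 2 (122147686 to 122153083), and Nlrc5 (94434356 to 94527272) and Psmb10 (105935735 to 105938444) are on chromosome 8. Tap1 and Psmb9 run in opposite directions and overlap in the annotation, with RefSeq start sites 226 bases apart. Among the members, H2-K1 and H2-D1 are the only ones with no annotated gene overlapping them, but they are polymorphic and closely related to other class I genes. Reads from another haplotype than that of the reference, or from a close copy, may be lost or assigned to the wrong gene. The study's methods name VERSE with its -S option for counting, without saying whether strand was used, so reads of overlapping genes on opposite strands may not be told apart.

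The sequence before the start site was examined because all 10 members were higher in one comparison below. Of the 10 genes, 8 were matched in a RefSeq table of start sites on GRCm38.p6, all but Tap2 and Nlrc5. The 250 bases upstream are printed for both heavy chains, for B2m and for Tap1, whose window also holds most of the Psmb9 one on the other strand. Capitals mark matches, on either strand, to the interferon response motif (GAAA, any 2 bases, GAAA), its shorter form GAANNGAAA, the gamma-activated motif TTCNNNGAA, the NF-kappaB consensus, the X2-box core TGACG and the Y-box core ATTGG. The windows are chr17:34000348-34000597 on the minus strand, chr17:35262844-35263093 on the plus strand, chr2:122147437-122147686 on the plus strand and chr17:34187306-34187555 on the plus strand.
H2-K1: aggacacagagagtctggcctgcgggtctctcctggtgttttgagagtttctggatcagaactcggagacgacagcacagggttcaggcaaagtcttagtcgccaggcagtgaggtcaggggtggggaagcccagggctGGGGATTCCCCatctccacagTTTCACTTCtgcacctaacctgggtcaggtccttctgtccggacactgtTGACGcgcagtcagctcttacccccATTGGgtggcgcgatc
H2-D1: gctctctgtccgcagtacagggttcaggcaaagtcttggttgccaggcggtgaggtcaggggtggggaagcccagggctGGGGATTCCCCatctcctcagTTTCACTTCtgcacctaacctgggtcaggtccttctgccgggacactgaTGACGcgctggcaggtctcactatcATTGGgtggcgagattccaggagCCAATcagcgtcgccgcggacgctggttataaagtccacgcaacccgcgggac
B2m: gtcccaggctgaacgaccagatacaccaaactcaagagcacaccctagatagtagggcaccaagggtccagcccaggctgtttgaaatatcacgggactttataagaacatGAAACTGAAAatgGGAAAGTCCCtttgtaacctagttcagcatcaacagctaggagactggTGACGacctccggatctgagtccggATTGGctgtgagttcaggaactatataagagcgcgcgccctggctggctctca
Tap1: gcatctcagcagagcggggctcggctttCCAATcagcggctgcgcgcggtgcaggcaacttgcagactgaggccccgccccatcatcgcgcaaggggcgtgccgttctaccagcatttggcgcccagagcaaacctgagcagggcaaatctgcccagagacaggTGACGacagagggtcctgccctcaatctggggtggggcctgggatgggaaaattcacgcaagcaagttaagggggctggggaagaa

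H2-K1 and H2-D1 share the order of these matches: an NF-kappaB consensus, then GAANNGAAA read on the other strand (printed as TTTCACTTC), then TGACG, then ATTGG. Of 190 bases aligned between the windows, with gaps allowed, 174 were identical, with the shared block farther from the start site in H2-D1. The same alignment against B2m gave 154 identical of 200 aligned bases for H2-K1 and 148 of 210 for H2-D1. In B2m the interferon response motif came first, then the NF-kappaB consensus, TGACG and ATTGG. In each of these 3 windows the first bases of TGACG and ATTGG lay 25 bases apart, a spacing read from H2-K1 after the sequences were seen. The same pair at that spacing occurred in 25 of 27025 promoters of this length (0.0925%), these 3 among them. Tap1 and Psmb9 held both letters at other spacings, Tapbp held ATTGG, Psmb8 held TTCNNNGAA, and Psmb10 held none of the 6. Single matches were common: TGACG was in 17.9%, ATTGG in 34.5%, the NF-kappaB consensus in 7.01%, TTCNNNGAA in 7.18%, GAANNGAAA in 6.34% and the longer interferon response motif in 3.04% of promoters. Matches of these letters describe the sequence and show no binding.

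Together the 10 genes took 548 CPM in skin Cont BECs, 585 CPM in the library labelled cKO, 505 and 401 CPM in cultured Cont BECs and OE-BECs, and 555 and 950 CPM in Cont LECs and OE-LECs. B2m alone made up between 47.2% and 65.0% of these reads. To compare genes with each other, CPM was divided by the exon length in kilobases, taken over all annotated isoforms. On this scale B2m was the highest member in every library (from 238 in OE-BECs to 658 in OE-LECs) and Nlrc5 the lowest (from 0.18 in Cont LECs to 0.73 in the library labelled cKO). The second place was held by H2-D1 in the skin and LEC libraries and by Tapbp in both cultured BEC libraries.

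**Figure D1:**
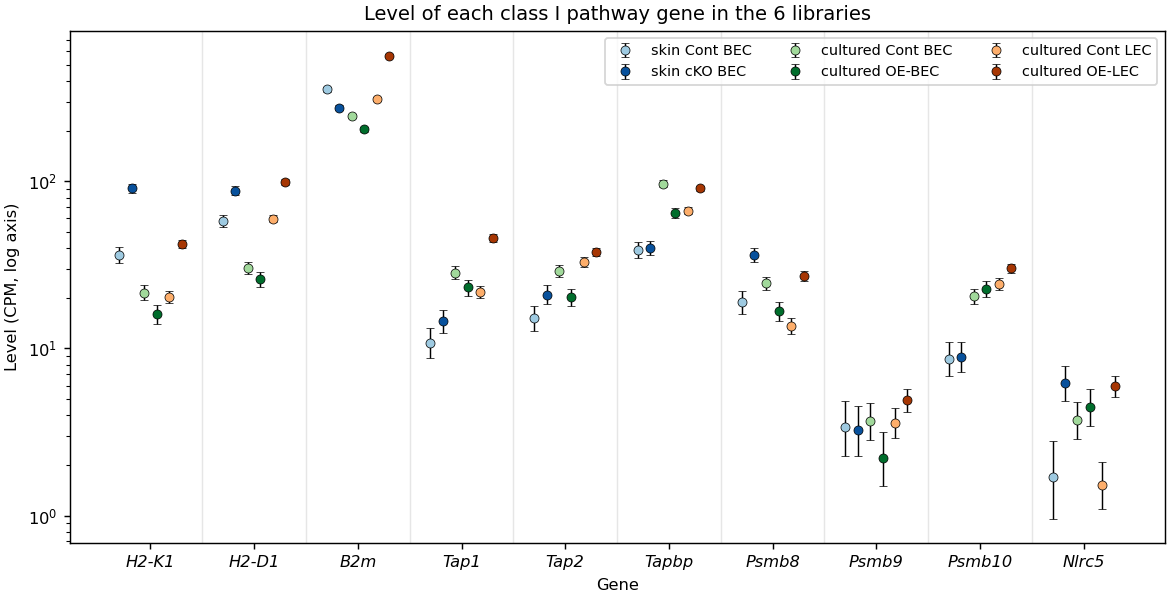
Level of each of the 10 genes in CPM (log axis) in the 6 libraries, 1 point per library, with exact 95% Poisson intervals. OE-LECs hold the highest point for B2m (566 CPM), H2-D1, Tap1, Tap2, Psmb9 and Psmb10, and the library labelled cKO for H2-K1 (91.0 CPM), Psmb8 and Nlrc5.

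The 3 control libraries already differed. H2-D1 was at 58.0 CPM in skin BECs, 30.3 CPM in cultured BECs and 59.8 CPM in LECs, and the skin BEC and LEC values did not differ beyond counting error (log2 ratio 0.05, interval -0.10 to 0.19). H2-K1 was at 36.4, 21.5 and 20.3 CPM in the same order. On this scale the cultured lines did not differ beyond counting error (log2 ratio of LECs over BECs -0.09, interval -0.28 to 0.11). The skin library therefore had the highest H2-K1 of the 3, while its Tap1 was the lowest.

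Tap1 was at 10.8, 28.4 and 21.7 CPM, Tap2 at 15.2, 29.1 and 32.8 CPM, and Tapbp at 38.9, 96.7 and 66.6 CPM. All 3 loading genes were thus at least 1.71-fold higher in either cultured control than in skin, and so was Psmb10 (8.69, 20.6 and 24.3 CPM). B2m was highest in skin (356 CPM), then in LECs (311 CPM) and cultured BECs (246 CPM), each apart from the next beyond counting error. Psmb8 was highest in cultured BECs (24.5 CPM), then in skin (18.8 CPM) and LECs (13.6 CPM). Psmb9 lay between 3.38 and 3.68 CPM, with no pair apart beyond counting error. Nlrc5 was at 3.73 CPM in cultured BECs, above skin (1.69 CPM) and LECs (1.53 CPM), which did not differ from each other beyond counting error. Source, preparation and culture also separate these libraries and cannot be told apart from cell type.

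The comparison of OE-LECs with Cont LECs asks how class I genes stood when Dot1l was raised in the line labelled LEC. All 10 members were higher in OE-LECs, each with an interval above 0, whereas 50.6% of the 13883 genes past the count minimum were higher and 49.4% lower, and 22.8% had an interval above 0 and 20.2% below. Their median log2 ratio was 0.81, against 0.00 over all genes. By the rule of the study's methods (at least 3 normalized counts and more than 3 times the other library), 1 member, Nlrc5, was called higher (background 2.77%) and none lower (2.09%). At a 2-fold limit the count was 4, Nlrc5, Tap1, H2-K1 and Psmb8, against a background of 4.98%, and none was lower (4.26%). Psmb8 was only just past this limit (log2 ratio 1.01). Scaled by total counts its log2 ratio was 0.99, short of it. Of genes whose higher library had 100 normalized counts or more, 1.5% were past 2-fold higher and 0.847% lower. Among these genes 27.8% had an interval above 0 and 24.5% one below 0.

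Among the presenting molecules, B2m went from 311 to 566 CPM, a log2 ratio of 0.88 (interval 0.84 to 0.92) and the largest gain in reads of any member. H2-K1 went from 20.3 to 42.4 CPM and was 2.11-fold higher (log2 ratio 1.08, interval 0.93 to 1.23). H2-D1 went from 59.8 to 99.2 CPM, a log2 ratio of 0.75 (interval 0.66 to 0.84). Against the light chain the heavy chains differed in direction: reads of H2-K1 per read of B2m were 0.0653 in Cont and 0.0749 in OE-LECs (log2 change 0.20, interval 0.05 to 0.35), and those of H2-D1 were 0.193 and 0.175 (log2 change -0.14, interval -0.23 to -0.04).

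The pair of transporter subunits did not move alike. Tap1 went from 21.7 to 46.0 CPM, 2.15-fold higher (log2 ratio 1.10, interval 0.96 to 1.25), while Tap2 went from 32.8 to 37.7 CPM (log2 ratio 0.22, interval 0.09 to 0.35). The ratio of Tap1 to Tap2 reads in a library needs no scaling, and it was 0.660 in Cont and 1.22 in OE-LECs, a 1.85-fold change (interval of the log2 change 0.69 to 1.08), a pair chosen after its values were seen, as were the pairs of heavy and light chain. Tapbp went from 66.6 to 91.0 CPM, a log2 ratio of 0.47 (interval 0.38 to 0.56).

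Nlrc5 had the largest ratio of the members and the fewest reads in Cont LECs. It went from 40 to 184 reads (1.53 to 5.93 CPM), 3.92-fold higher with a log2 ratio of 1.97 (interval 1.47 to 2.50). Of 17 regulators of class I transcription, 8 were higher and 9 lower in OE-LECs. Irf7, an interferon-induced factor, went from 766 to 5679 reads (log2 ratio 2.66) and was the single one called. Stat2 and Irf9, which act together in the type I interferon response, had log2 ratios of 0.75 and 0.73. Irf1, a direct activator of class I promoters, had a log2 ratio of 0.20, and Rfx5, a subunit of the complex on the X box, one of -0.06 (interval -0.23 to 0.11). Ifnb1 had 1 and 5 reads (log2 ratio 2.09, interval -1.07 to 7.65), and Ifng had 0 reads in all 6 libraries, where the exact Poisson interval of a 0 count reaches 0.119 CPM in OE-LECs.

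**Figure D2:**
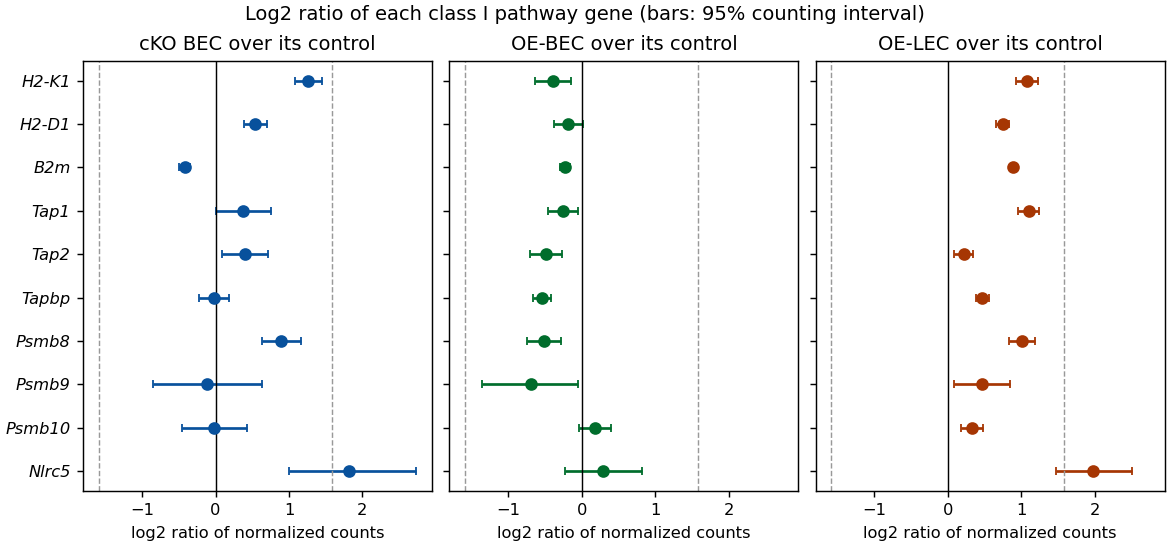
Log2 ratio of normalized counts of each member in the 3 comparisons (changed library over its own control), with exact 95% counting intervals. Dashed lines mark 3-fold. In OE-LECs all 10 intervals lie above 0, in OE-BECs 7 of 10 lie below 0, and in the library labelled cKO 6 lie above and 1 below.

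OE-BECs went the other way for most members. Of the 10 genes 8 were lower in OE-BECs than in cultured Cont BECs, 7 of them with an interval below 0, against 49.2% and 27.5% of the 14792 genes past the minimum. The other 2, Psmb10 and Nlrc5, were higher (background 50.8%), with no interval above 0 (26.3%). The median log2 ratio was -0.32, against -0.00 over all genes, and no member was called in either direction (backgrounds 8.02% higher and 5.27% lower) or was more than 2-fold apart (11.4% and 8.81%). The background at 2-fold was 1.82% higher and 4.17% lower where the higher library had 100 normalized counts or more. Among these genes 30.6% had an interval above 0 and 35.1% one below 0.

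Tapbp, second to B2m per kilobase in these cells, went from 96.7 to 64.8 CPM in OE-BECs, a log2 ratio of -0.54 (interval -0.66 to -0.42). Tap2 had a log2 ratio of -0.49 (interval -0.70 to -0.27) and Tap1 one of -0.26 (interval -0.46 to -0.05). All 3 loading genes were thus lower. H2-K1 went from 21.5 to 16.0 CPM (log2 ratio -0.39, interval -0.63 to -0.15) and B2m from 246 to 205 CPM (log2 ratio -0.23, interval -0.30 to -0.16), while the interval of H2-D1 reached 0.01. Nlrc5, the transactivator, had 66 and 62 reads, and its log2 ratio of 0.29 (interval -0.23 to 0.81) did not differ from 0 beyond counting error. The regulators followed no single direction, with 7 of 17 higher and 10 lower. Stat2 had a log2 ratio of -0.51 and Rfx5 one of -0.59, while Irf7 was higher, with one of 0.24 (interval 0.11 to 0.36). None of the 17 was more than 2-fold apart. The share of Rn45s, the ribosomal precursor RNA, was 5.91% in cultured Cont BECs and 10.9% in OE-BECs, and 11 of 12 blood endothelial markers were lower in OE-BECs (9157 and 5828 CPM in sum). Their part in the class I values was not tested. Scaled by total counts the median of the members was -0.36, and -0.28 with Rn45s left out of those totals.

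The log2 ratio in OE-LECs minus that in OE-BECs, which share no library, was above 0 for all 10 members, with a median of 1.13. Psmb10 was the exception in size, at 0.14 with an interval that held 0 (-0.12 to 0.40). For the other 9 the interval lay above 0, and the difference ran from 0.70 (Tap2, interval 0.46 to 0.95) to 1.68 (Nlrc5, interval 0.98 to 2.38). These intervals come from reads alone, by a normal approximation, and the difference between the lines was not tested against replicates. No share of all genes is given for this difference, so these counts of members have no background to be read against.

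**Figure D3:**
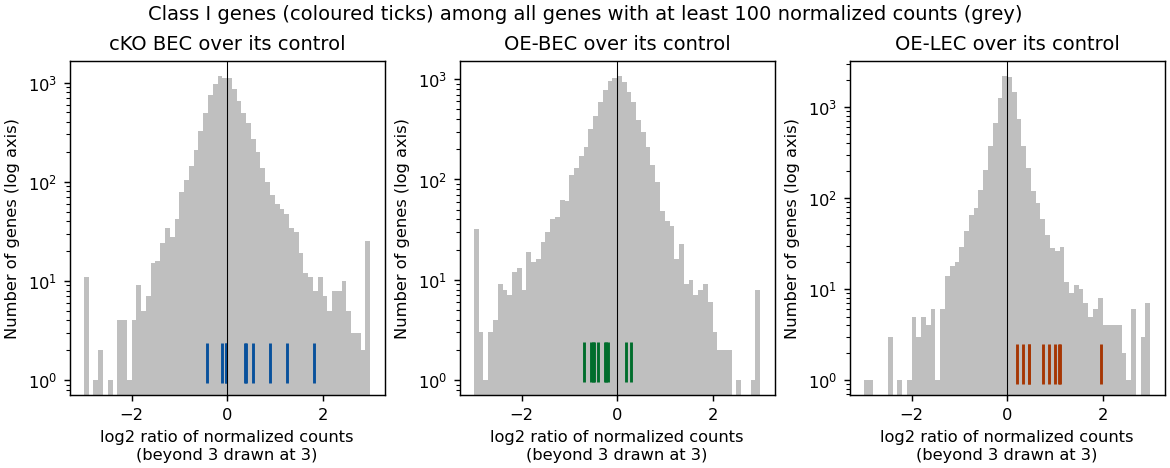
Number of genes (log axis) by log2 ratio of normalized counts for all genes that reach 100 normalized counts in one library and have reads in both (grey), with the 10 members as coloured ticks at arbitrary height. The members lie right of 0 in OE-LECs, mostly left of 0 in OE-BECs, and on both sides in the library labelled cKO.

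In skin BECs the comparison is between the library labelled as a Dot1l knockout and its control. Here the heavy chains, Psmb8 and Nlrc5 were higher and B2m lower in the library labelled cKO. In all, 6 members were higher, each with an interval above 0 (backgrounds 50.5% and 22.8% of 15993 genes), and 4 were lower, 1 with an interval below 0 (49.5% and 25%). Nlrc5 was the 1 member called higher by the 3-fold rule with a minimum of 5 (background 5.17%), none was called lower (2.41%), and H2-K1 joined Nlrc5 at 2-fold (10.4% higher and 5.23% lower, or 3.54% and 2.06% where the higher library had 100 normalized counts or more). Among genes with 100 normalized counts or more in the higher library, 25.6% had an interval above 0 and 33.5% one below 0. The median log2 ratio of the members was 0.39, against 0.00 over all genes, and 0.18 when H2-K1 and H2-D1 were left out.

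H2-K1 went from 36.4 to 91.0 CPM, 2.40-fold higher (log2 ratio 1.27, interval 1.08 to 1.45), and H2-D1 from 58.0 to 87.8 CPM, 1.46-fold higher (log2 ratio 0.54, interval 0.39 to 0.70). B2m, the light chain of both, went from 356 to 276 CPM (log2 ratio -0.42, interval -0.49 to -0.35). Heavy and light chain thus parted in their reads. Reads of H2-K1 per read of B2m went from 0.102 to 0.330, a 3.22-fold change whose log2 interval was 1.49 to 1.89. Those of H2-D1 went from 0.163 to 0.318. H2-K1 and H2-D1 are polymorphic, and whether the skin libraries share a haplotype was not tested. Tap1 (log2 ratio 0.38, interval 0.00 to 0.76) and Tap2 (0.40, interval 0.09 to 0.72) were only slightly higher, and Tapbp had 345 and 443 reads, a log2 ratio of -0.02 (interval -0.22 to 0.19). Nlrc5 went from 15 to 69 reads (1.69 to 6.22 CPM), a log2 ratio of 1.82 with a wide interval (1.0 to 2.74).

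Cell type markers also differed between the skin libraries. Of the 14 leukocyte and macrophage markers 13 were higher in the library labelled cKO, with a median log2 ratio of 0.76, among them C1qb (622 and 2181 reads), C1qc (529 and 1776) and Itgam (233 and 833), while Cd14 was lower. Class II genes, which professional antigen-presenting cells express, summed to 25.2 CPM in Cont and 49.1 CPM in the library labelled cKO. Of the 10 tested 6 were higher and 4 lower, with Cd74 at 58 and 209 reads, H2-Ab1 at 31 and 126 and the class II transactivator Ciita at 11 and 36 among the higher, and H2-Ob at 15 and 7 among the lower. In the same library 10 of 12 blood endothelial markers were lower, from 6766 to 4398 CPM in sum. Keratinocyte markers were higher for 6 of 9 (173 and 275 CPM in sum) and fibroblast and pericyte markers lower for 9 of 10 (2939 and 2198 CPM), although the sort for CD31 should leave both out. Mast cell markers were higher for 5 of 8 (2380 and 3315 CPM in sum), with Mcpt4 at 389 and 1329 reads and Mrgprb1 the other way at 191 and 4. The part of these cells in the class I values was not tested. Of the 17 regulators 14 were lower, and Irf1 had 1116 and 429 reads (log2 ratio -1.76), the opposite direction to Nlrc5 and the heavy chains.

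In the cultured libraries, by contrast, the defining leukocyte genes were at or near 0. Adgre1, C1qa, C1qb and C1qc had 0 reads in all 4 of them, and Ptprc, which encodes CD45, had 0 in both BEC libraries and 3 and 9 in Cont LECs and OE-LECs. The whole list summed to 96.8 CPM in Cont LECs and 84.8 CPM in OE-LECs, and to 68.1 and 36.3 CPM in Cont BECs and OE-BECs, mostly from the lysosomal gene Cd68 (32.2 to 93.2 CPM). Class II genes summed to 1.07 and 1.68 CPM in the LEC libraries. Blood endothelial markers were lower in OE-LECs for 10 of 12, with 7638 and 6738 CPM in sum, and their part in the class I values was not tested.

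**Figure D4:**
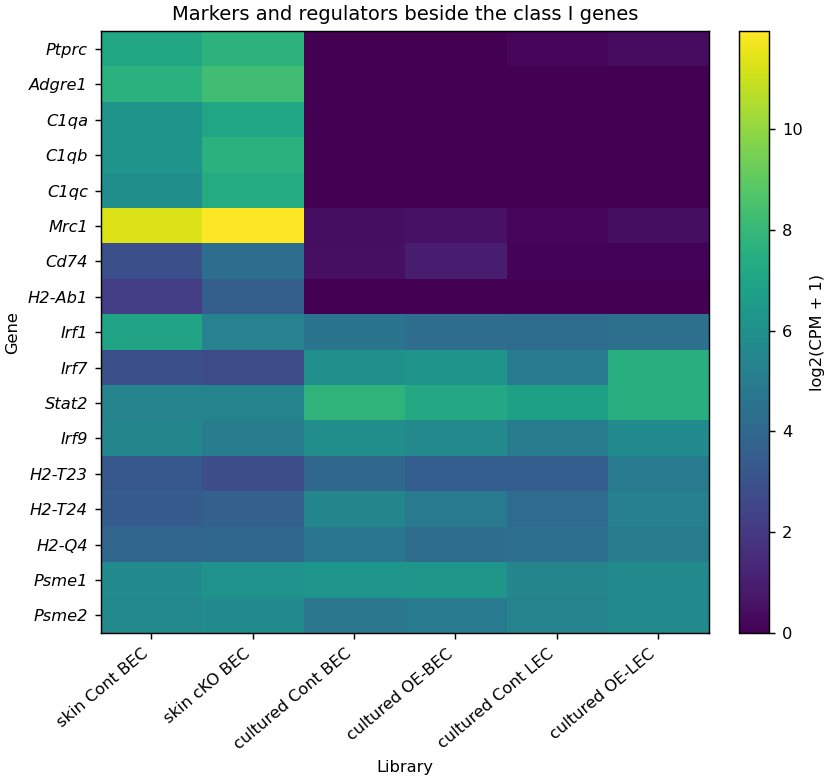
Level of leukocyte markers, class II genes, regulators, further class I genes and proteasome activator subunits in the 6 libraries, as log2(CPM + 1) in colour. The leukocyte and class II genes plotted are present in the skin libraries and close to 0 in the 4 cultured ones, while Irf7 is brighter in OE-LECs than in Cont LECs.

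Each immunoproteasome subunit takes the place of one constitutive subunit (Psmb8 of Psmb5, Psmb9 of Psmb6, Psmb10 of Psmb7), and the ratio of their reads in a library needs no scaling. In OE-LECs all 3 ratios were higher than in Cont LECs. Psmb8 per Psmb5 went from 0.373 to 0.696, a log2 change of 0.90 (conditional exact interval 0.68 to 1.12), Psmb9 per Psmb6 changed by 0.44 (interval 0.05 to 0.83) and Psmb10 per Psmb7 by 0.37 (interval 0.22 to 0.53). The constitutive subunits Psmb5, Psmb6 and Psmb7 themselves had log2 ratios of 0.11, 0.02 and -0.05.

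In OE-BECs the ratio was lower for Psmb8 (log2 change -0.46, interval -0.81 to -0.10) and for Psmb9 (-1.0, interval -1.68 to -0.35), which rested on only 65 and 31 reads of Psmb9. For Psmb10 it was 0.11 (interval -0.14 to 0.36). In skin, Psmb8 went from 18.8 to 36.4 CPM (log2 ratio 0.90, interval 0.63 to 1.17), but Psmb5 also had a log2 ratio of 0.41 (interval -0.00 to 0.82), and the interval of the change in their ratio held 0 (0.49, interval -0.01 to 0.99). Set against the summed core subunits that are not exchanged, the log2 change of Psmb8 was 0.88. Psmb9 (30 and 36 reads) and Psmb10 (77 and 99 reads) did not differ beyond counting error in skin. Psmb9, the neighbour of Tap1, had the lowest level per kilobase of the 3 immune subunits in every library, at 2.22 to 4.90 CPM.

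**Figure D5:**
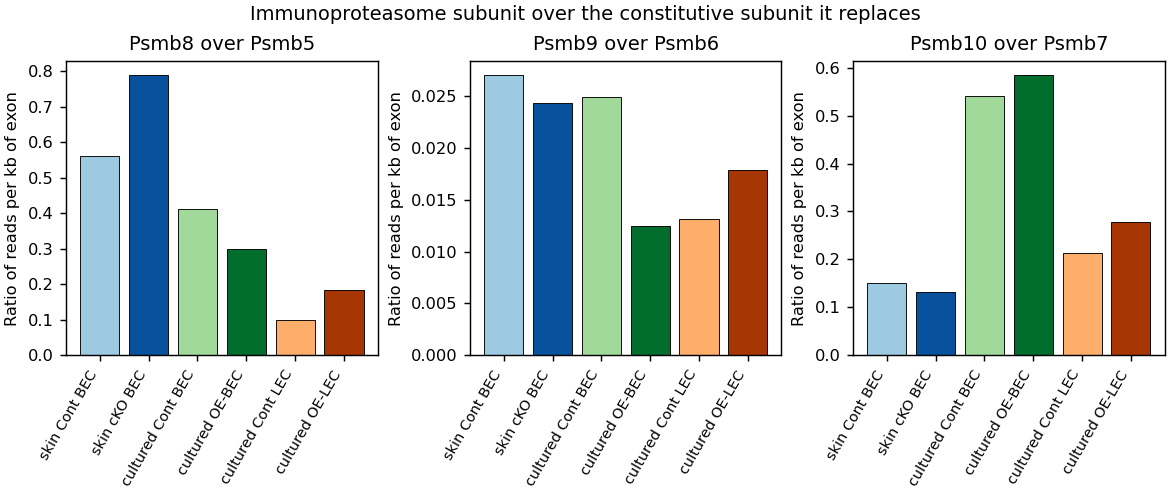
Reads per kilobase of exon of each immunoproteasome subunit divided by those of the constitutive subunit it replaces, 1 bar per library, no error bars. Exon lengths span all isoforms, so bars are to be compared within a panel. Psmb8 over Psmb5 is lowest in Cont LECs and higher in OE-LECs.

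Further genes of the pathway were taken as lists by their role. Of 22 other class I and class I-like genes, 10 passed the minimum in the LEC comparison, with 5 higher and 5 lower and a median log2 ratio of 0.03, so the list as a whole did not follow the members. H2-T23, which encodes the Qa-1 molecule recognised through NKG2 receptors, went from 285 to 878 reads (log2 ratio 1.39, interval 1.20 to 1.59) and H2-T24 from 446 to 1126 (log2 ratio 1.11, interval 0.95 to 1.27). H2-Q4 had a log2 ratio of 0.70. On the other side stood the lipid-presenting Cd1d1 (log2 ratio -0.52) and Mr1, which presents vitamin B metabolites (-0.40). In OE-BECs 8 of 9 tested genes of this list were lower, and Mr1 was more than 2-fold apart there, with 241 and 86 reads (log2 ratio -1.10). H2-Q5, H2-Q6, H2-Q7, H2-Q8 and H2-Q9, had 0 reads in all 6 libraries, which is uncertain for a family of near-identical copies. H2-T10, named after its values were seen, had 4 and 106 reads in the skin libraries and is likewise a close copy of H2-T22, which had 0 in both.

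All 8 chaperone and trimming genes of the endoplasmic reticulum were higher in OE-LECs with an interval above 0, but by little, with a median log2 ratio of 0.15. Calreticulin (Calr) had 24111 and 30611 reads (log2 ratio 0.11), the peptide-trimming Erap1 a log2 ratio of 0.20 and the tapasin relative Tapbpl one of 0.30. The interferon-inducible subunits of the proteasome activator PA28, Psme1 and Psme2, had log2 ratios of 0.31 (interval 0.20 to 0.42) and 0.38 (interval 0.26 to 0.49). Of the core proteasome subunits that are not exchanged, 5 of 11 tested were higher and 6 lower, with a median of -0.01. No gene of these 3 lists was more than 2-fold apart.

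The genes whose profile over the 6 libraries was most like the mean profile of the members were Pid1 (Pearson r = 0.995), Pdcd2 (0.963) and Srd5a3 (0.938), computed on log2(CPM + 1) over 6 libraries for the 11898 genes with at least 100 reads in a library. Next came Abcc10, Gnptab, Etfb and Plin2 (0.918 to 0.911), then Plekhb2, Srgn and Hap1 (0.883 to 0.879). The members, each of which is part of the mean it was compared with, had values between 0.42 (H2-K1) and 0.77 (Psmb9). The 6 points mix skin with culture and 3 cell sources, and the values are a description only.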

How the data were processed

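RNA-seq was done on 6 libraries, 1 per condition. The authors prepared them with ScriptSeq v2, trimmed adapters with skewer, aligned reads to mm10 with STAR, counted them per gene with VERSE (-S option) and deposited raw counts for 24421 gene symbols. Groups were taken from the sample titles. Each changed library was compared with its own control after median of ratios scaling (DESeq2 1.42.0, R 4.3.3). Log2 ratios have Clopper-Pearson 95% intervals, CPM Poisson intervals, and ratios of 2 genes conditional exact intervals (Python 3.11.15, scipy 1.17.1), and no p-value was computed. Differences of log2 ratios between the cultured lines have 95% intervals from a normal approximation on the log counts. Following the study's methods, a call required more than 3 times the normalized count of the other library, with a minimum for the higher value of 5 in skin and 3 in cultured cells. A limit of 2-fold and minimums of 20, 100 or none were also used. Lengths and positions came from GENCODE M21. Alternatives were scaling on all 6 or the 4 cultured libraries, TMM (edgeR 4.0.16), total counts with and without Rn45s, a pseudocount of 1 and leaving out H2-K1 and H2-D1. The log2 ratios, their intervals and the 3-fold calls were tested on simulated Poisson counts with known folds, which hold no replicate spread. The other steps were not tested in this way. Beyond the 10 members, genes were named by their role as partner of a member or by a fixed rule (more than 2-fold apart with at least 100 normalized counts, up to 4 per list), except where stated, for Stat2, Irf9, H2-Q4, Cd1d1, Ciita, H2-Ob, Ifnb1, Ifng and the H2-Q genes at 0, named after their values were seen, and for defining cell type markers. Members and lists were chosen with earlier results of these data known. One gene of the regulator list is not reported here.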

Additional observations from a re-analysis of the deposited data

Results flagged for a closer look

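The log2 ratios of 7 members had opposite signs in the cultured lines, with both counting intervals clear of 0: above 0 in OE-LECs and below 0 in OE-BECs. The log2 ratio in OE-LECs minus that in OE-BECs was 1.52 for Psmb8, 1.47 for H2-K1, 1.36 for Tap1, 1.15 for Psmb9, 1.11 for B2m, 1.01 for Tapbp and 0.70 for Tap2. Of all genes past the count minimum, 22.8% had an interval above 0 in OE-LECs and 27.5% one below 0 in OE-BECs. Among genes with 100 normalized counts or more in the higher library, these shares were 27.8% and 35.1%. The share of genes with both is not given, so the count of 7 has no background of its own. With 1 library per condition, the difference between the lines was not tested. Dot1l itself was 2.78-fold higher in OE-BECs and 2.30-fold higher in OE-LECs, with counting intervals that do not overlap.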

How the results depend on the processing

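No member whose interval excluded 0 changed sign under any scaling or pseudocount, and all 200 recomputed values of single members moved by less than their counting interval. Tapbp and Psmb10 in the library labelled cKO, both near 0, ran from -0.02 to 0.04 across the scalings. A limit of 2-fold in place of 3-fold raised the count of called members from 1 to 2 in the library labelled cKO and from 1 to 4 in OE-LECs. Of these 4, Psmb8 had a log2 ratio of 1.01 in OE-LECs. With total counts, with or without Rn45s, its log2 ratio was 0.99, short of 2-fold. With total counts without Rn45s, a scaling of the interval counts added after the data were seen, 1 member had an interval above 0 in OE-BECs in place of 0. With size factors from all 6 libraries in place of CPM, the summed level of the members was 524 and 542 in the skin libraries (Cont first), 530 and 439 in the cultured BECs and 535 and 923 in the LECs per 1000000 reads, so the 3 controls lay closer together. Ratios of single members between the controls were computed on CPM only. Calls near their limit, such as that of H2-K1 between the cultured controls, may differ with these size factors. Of the other 118 recomputed counts, medians and subunit ratios, 3 moved by more than 1.5 times, all in skin. The median there was 0.39 with all members and 0.18 without H2-K1 and H2-D1, and with the summed core subunits as denominator the log2 change was 0.88 in place of 0.49 for Psmb8 and -0.04 in place of -0.18 for Psmb10. Among the rest, the count of members with an interval below 0 in OE-BECs was 8 in place of 7 with total counts. No paired analysis was possible because each condition has 1 library and the labels carry no replicate numbers, and for the same reason no replicate could be left out. Depth limits Psmb9 and Nlrc5 most, with 15 to 184 reads.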
